A study of Mus musculus with 8 samples.

Results

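The 10 genes *Ezh1*, *Ezh2*, *Eed*, *Suz12*, *Jarid2*, *Aebp2*, *Mtf2*, *Phf1*, *Phf19* and *Epop*, which encode the core and accessory subunits of Polycomb repressive complex 2 (PRC2), were taken by name from the bulk transcriptome of mouse germ cells. Of these, 9 had a row among the 21950 genes of the count table, matched by Entrez identifier, and *Phf1* was not analysed here. RNA-seq had been performed on d6PGCLCs (4 pools) and on E12.5 PGCs (4 pools). d6PGCLCs are primordial germ cell-like cells made in culture. They came from 1 iPSC line carrying Blimp1-Venus and Stella-ECFP reporters (BVSC), were collected at day 8 of culture, which is 6 days after the start of differentiation from epiblast-like cells, and were sorted for both reporters. The PGCs came from the gonads of female C57BL/6J embryos at E12.5 and were sorted for SSEA1 and integrin β3. Each pool held 30000 to 340000 cells from an independent experiment. Culture, stage, source of the cells and sort differed at once between the groups, so that their parts in any difference cannot be told apart.

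PRC2 places methyl groups on lysine 27 of histone H3, and its trimethylated product, H3K27me3, marks silenced genes. EZH1 and EZH2 are alternative catalytic subunits, of which EZH2 is the more active methyltransferase, while EED reads the mark and stimulates the enzyme and SUZ12 holds the complex together. Accessory proteins define 2 forms of the complex, 1 with JARID2 and AEBP2 and the other with a Polycomb-like protein (PHF1, MTF2 or PHF19), to which EPOP can bind. In germ cells, H3K27me3 persists while DNA methylation is being erased.

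The 9 subunit genes measured lay on 6 chromosomes of GRCm38 (RefSeq coordinates), among them the catalytic pair *Ezh2* (chromosome 6, 47530274 to 47595270, minus strand) and *Ezh1* (chromosome 11, 101191115 to 101226463, minus strand), and the scaffold gene *Suz12* (chromosome 11, 79993106 to 80034123, plus strand). Their promoters are shown because *Ezh2* and *Suz12* were higher in d6PGCLCs, whereas *Ezh1* was not. Each sequence below is the 250 bases before an annotated start site in RefSeq (GRCm38.p6), read 5′ to 3′ on the strand of the gene. CG dinucleotides are in capitals. The windows are chr6:47595031-47595280 for *Ezh2*, chr11:101226464-101226713 for *Ezh1* and chr11:79992856-79993105 for *Suz12*. That of *Ezh2* lies mostly inside the gene coordinates given above, which end at 47595270. Those of *Ezh1* and *Suz12* lie outside theirs.
Ezh2: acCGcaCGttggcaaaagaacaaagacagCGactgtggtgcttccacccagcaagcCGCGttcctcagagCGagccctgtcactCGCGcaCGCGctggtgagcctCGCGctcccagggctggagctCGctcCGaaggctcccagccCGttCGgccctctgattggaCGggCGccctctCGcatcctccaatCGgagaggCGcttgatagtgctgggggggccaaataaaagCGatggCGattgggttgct
Ezh1: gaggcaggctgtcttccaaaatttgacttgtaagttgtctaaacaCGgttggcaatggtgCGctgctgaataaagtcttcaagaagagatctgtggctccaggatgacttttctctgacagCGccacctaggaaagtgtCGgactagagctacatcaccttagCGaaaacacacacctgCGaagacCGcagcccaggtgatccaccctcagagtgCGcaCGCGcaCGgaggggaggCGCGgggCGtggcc
Suz12: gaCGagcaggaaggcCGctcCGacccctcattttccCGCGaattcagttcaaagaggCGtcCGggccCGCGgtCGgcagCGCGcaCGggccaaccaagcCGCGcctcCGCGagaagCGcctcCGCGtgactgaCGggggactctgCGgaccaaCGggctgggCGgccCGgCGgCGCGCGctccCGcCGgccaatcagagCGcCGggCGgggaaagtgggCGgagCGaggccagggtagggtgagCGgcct
The *Suz12* promoter held 37 CG dinucleotides, the *Ezh2* promoter 23 and the *Ezh1* promoter 14. Their observed over expected CG ratios were 1.10, 0.910 and 0.738. The reference table held 13 promoters for 9 of the 10 subunit genes, with none for *Epop*. Several of these windows lie partly or wholly inside the gene coordinates, among them that of *Phf19*. A ratio of at least 0.6 was found in 10 of these 13 promoters, and in 33.95% of all 32851 promoters in the table. Across the subunit genes, CG content did not follow the difference between the cell types. *Phf19*, which was not called, held 31 CG dinucleotides at a ratio of 0.923. The promoters below 0.6 were those of *Aebp2* (0.0743 and 0.195) and *Mtf2* (0.149), both higher in d6PGCLCs, and each gene also had a promoter above 0.6. Words bound by the E2F cell cycle factors (TTTCCCGC, TTTCGCGC, TTTGCCGC or TTTGGCGC, on either strand) occurred in 2 of the 13, in that of *Suz12* at 219 bases and in that of *Phf19* at 208 bases before the start site, and in 1.86% of all promoters. The GC box GGGCGG, which can overlap an E2F word, was present in 8 of the 13 and in 32.7% of all. CCAAT was present in 5 of the 13 and in 33.85% of all, both strands being searched. These matches describe letters in a window and do not show that a factor binds there.

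All values below rest on counts of uniquely mapped reads on the counted exons, which summed to 7991437 to 12024841 a library. Levels of a gene are given as CPM, which relates each count to its TMM-scaled library size, and levels of different genes as CPM per kilobase of the counted exons (RPKM). A gene was called higher or lower where its p from edgeR's quasi-likelihood test, after Benjamini-Hochberg adjustment over all genes, did not exceed 0.05, and ± is the SD over 4 libraries. The first principal component held 60.4% of the variance and separated the groups. All 10 germ cell markers examined had a mean of at least 1 CPM, and 5 were higher in d6PGCLCs, 3 lower and 2 not called. *Prdm1*, the gene of Blimp1, had a mean of 444 ± 43.6 CPM in the d6PGCLC libraries and 192 ± 18.1 CPM in those of the PGCs. *Dppa3*, the gene of Stella, was also among the 5 higher, at 691 ± 118 against 384 ± 42.5 CPM. The sort of d6PGCLCs used the Blimp1 and Stella reporters, so that the levels of *Prdm1* and *Dppa3* are not independent of the sort. *Ddx4*, a gene of later germ cells, was at 35.5 ± 6.60 and 760.4 ± 92.2 CPM. The 9 gonadal somatic markers with a row each had a mean below 1 CPM over the 8 libraries, and their sum was 0.498 to 1.70 CPM in d6PGCLCs and 3.79 to 8.42 CPM in E12.5 PGCs. Of the blood and endothelial markers with a row, *Ptprc* and *Emcn* were at or near 0, and the sum of the 5 was 20.0 to 34.3 against 14.2 to 24.4 CPM, nearly all from *Tek* and *Cdh5*. Of the 6 epiblast markers, 4 were lower in d6PGCLCs, *Dnmt3b* was higher (20.4 ± 6.16 against 10.6 ± 1.92 CPM) and 1 was not called, with a median log2 fold change of -1.48. Their sum was 20.6 to 35.6 against 22.5 to 26.4 CPM, most of it from *Dnmt3b* in d6PGCLCs. E12.5 PGC replicate 4, labelled female, held 99 counts over 7 Y-linked genes, against 0 in the other 7 libraries. In E12.5 PGC replicate 2, genes of the dissociation response summed to 1255 CPM, against 552 to 627 CPM in the other PGC libraries and 578 to 748 CPM in d6PGCLCs. That library had the lowest CPM of its group for 6 of the 9 subunit genes. The part of these features in the results was not tested. Counts of called members without those libraries are given below, with values for some genes only.

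Of the 9 subunit genes measured, 6 were higher in d6PGCLCs than in E12.5 PGCs, namely *Ezh2*, *Suz12*, *Jarid2*, *Aebp2*, *Mtf2* and *Epop*. None was lower by edgeR, at an unadjusted p of at most 0.05 or by DESeq2 (0 genes in each), and *Ezh1*, *Eed* and *Phf19* were not called. The share of called members was 66.7%. Among all genes, 31.5% were called, 16.1% higher and 15.4% lower. Among the 11487 genes with a mean of at least 1 CPM, to which all 9 belong, 53.6% were called, 28.1% higher and 25.6% lower. The members' median log2 fold change was 0.36, beside 0.01 over those 11487 genes, whose median absolute change was 0.44. The members' changes were thus of a size common among genes. No member reached the extra limit of the study, a log2 fold change of 2 in either direction, which 6.62% of all genes passed together with the adjusted p. The libraries of the groups did not overlap for the same 6 genes, as was the case for 51.1% of the genes with at least 1 CPM. In bulk samples, fewer cells of a type and less RNA per cell cannot be told apart.

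**Figure D1:**
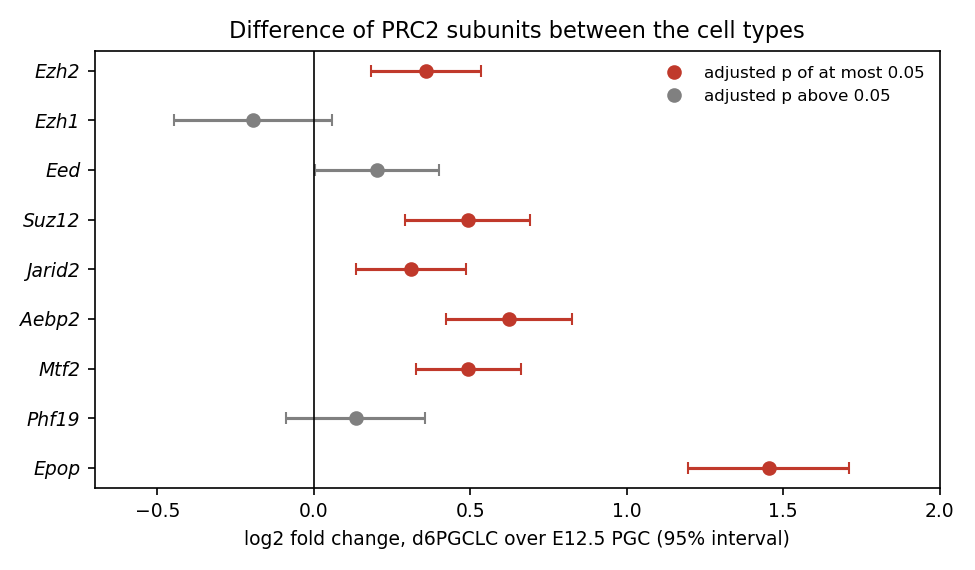
The points show the log2 fold change of d6PGCLCs over E12.5 PGCs for the 9 PRC2 subunit genes measured, with 95% intervals from edgeR's quasi-likelihood fit on 4 libraries a group (red, adjusted p of at most 0.05, and grey, above it). *Epop* lies at 1.45, the other called genes lie between 0.31 and 0.62, and *Ezh1* alone has a value below 0.

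Among the core subunits, *Suz12* and *Ezh2* were higher in d6PGCLCs by 1.41-fold and 1.28-fold, while *Eed* and *Ezh1* did not pass the test. *Ezh2* measured 355, 376, 327 and 362 CPM in d6PGCLC replicates 1 to 4 and 283, 257, 275 and 291 CPM in E12.5 PGC replicates 1 to 4. The lowest d6PGCLC library thus stood above the highest PGC library. The means were 355 ± 20.7 and 277 ± 14.7 CPM, with a log2 fold change of 0.36 (SE 0.08, adjusted p = 0.00187). Leaving out any library in turn kept it between 0.32 and 0.39, always past the threshold.

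*Suz12* was read at 707, 589.9, 554 and 569 CPM in d6PGCLCs and at 470.5, 372, 426 and 453 CPM in E12.5 PGCs. The groups did not overlap, with d6PGCLC replicate 1 high above its 3 companions and E12.5 PGC replicate 2 lowest. The log2 fold change was 0.49 (SE 0.10, adjusted p = 0.00033), and 0.41 to 0.54 with each library left out. *Eed* (chromosome 7, 89954654 to 89980976, minus strand) gave 163, 195, 183 and 183 CPM in d6PGCLCs and 141, 176, 149 and 163 CPM in E12.5 PGCs. These ranges overlapped, because E12.5 PGC replicate 2 was well above d6PGCLC replicate 1 and replicate 4 level with it. Its log2 fold change was 0.20 (SE 0.09, 95% interval 0.00 to 0.40, adjusted p = 0.122). The call turned on single libraries, since *Eed* passed without d6PGCLC replicate 1 (0.25, adjusted p = 0.0347) or without E12.5 PGC replicate 2 (0.26, adjusted p = 0.0476).

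*Ezh1*, the other catalytic subunit gene, had 60.4, 44.5, 43.7 and 44.7 CPM in d6PGCLCs and 57.1, 50.6, 59.0 and 53.9 CPM in E12.5 PGCs. Replicate 1 of the d6PGCLCs lay above every PGC library, whereas the other 3 lay below all of them. Over all libraries the log2 fold change was -0.19 (SE 0.12, 95% interval -0.45 to 0.06, adjusted p = 0.281). Without d6PGCLC replicate 1 it was -0.32 (adjusted p = 0.0266), the only setting tried that called *Ezh1*. That library was also the farthest from its group on the second principal component.

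Both genes of the JARID2 and AEBP2 form were higher in d6PGCLCs, by 1.24-fold for *Jarid2* and 1.54-fold for *Aebp2*. JARID2 and AEBP2 help to recruit PRC2 to chromatin that carries ubiquitinated H2A, and JARID2 stimulates the enzyme. *Jarid2* (chromosome 13, 44730774 to 44921643, plus strand) was covered by 7073 to 12426 reads a library, the deepest of the 9. It measured 1038, 946, 1031 and 1095 CPM in d6PGCLCs and 890.4, 744, 855 and 825 CPM in E12.5 PGCs, without overlap. The log2 fold change was 0.31 (SE 0.08, adjusted p = 0.00612). It ranged from 0.26 to 0.35 with each library left out, but was 0.24 (adjusted p = 0.0999) when E12.5 PGC replicates 2 and 4 were both left out, the only member called before and not after.

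*Aebp2* (chromosome 6, 140622454 to 140678472, plus strand) was at 132, 119.8, 103 and 116 CPM in d6PGCLCs and at 76.6, 73.9, 76.7 and 78.6 CPM in E12.5 PGCs. The 4 PGC libraries were nearly equal (coefficient of variation 2.56%, the smallest of any member in either group), whereas the d6PGCLC libraries spread by 9.82%. The log2 fold change was 0.62 (SE 0.10, adjusted p = 2.58e-05), and 0.57 to 0.68 with each library left out. The isoform counted for *Aebp2* spans 2835 exonic bases, 47.8% of the longest coding transcript in GENCODE vM21, so that reads on other isoforms may not have been counted.

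In the Polycomb-like and EPOP form, *Epop* was higher in d6PGCLCs by 2.74-fold and *Mtf2* by 1.41-fold, while *Phf19* did not pass the test. EPOP joins PRC2 to the elongin B and C proteins, and the Polycomb-like proteins bind unmethylated CG-rich DNA and trimethylated H3K36. *Epop* (chromosome 11, 97627387 to 97629716, minus strand) was read at 55.0, 74.6, 63.6 and 59.6 CPM in d6PGCLCs and at 21.8, 25.04, 21.4 and 24.1 CPM in E12.5 PGCs, from 175 to 267 reads in each PGC library and 431 to 767 in each d6PGCLC library. The lowest d6PGCLC value was above every PGC value by a wide margin. *Epop* had the largest change of the 9 members, with a log2 fold change of 1.45 (SE 0.12, 95% interval 1.20 to 1.71, adjusted p = 6.95e-09), above that of 92.7% of the genes with at least 1 CPM. It was 1.36 to 1.51 with each library left out.

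*Mtf2* (chromosome 5, 108065660 to 108109219, plus strand) measured 514, 484, 499 and 530.2 CPM in d6PGCLCs and 344, 351, 362 and 382 CPM in E12.5 PGCs. Both groups were tight (coefficients of variation of 3.93% and 4.58%) and well apart. The log2 fold change was 0.49 (SE 0.08, adjusted p = 4.37e-05), and 0.47 to 0.52 with each library left out. Of the exonic bases of *Mtf2*, 6.93% also lie in *Tmed5* on the opposite strand, and whether counting used strand is not given in the sources used here. The same holds for 6.82% of the exonic bases of *Eed*, 3.6% of *Suz12* and 2.61% of *Ezh2*, each in another gene on the opposite strand. *Phf19* (chromosome 2, 34893752 to 34914353, minus strand) had 75.9, 76.0, 95.1 and 91.8 CPM in d6PGCLCs and 83.5, 71.9, 81.1 and 72.7 CPM in E12.5 PGCs. The d6PGCLC libraries fell into a lower and a higher pair, and both groups covered a common range. The log2 fold change was 0.13 (SE 0.11, 95% interval -0.09 to 0.36, adjusted p = 0.435).

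Spread within a group was similar for the members and for other genes. Their coefficients of variation ran from 3.93% to 16.6% in d6PGCLCs, with *Ezh1* the highest, and from 2.56% to 9.93% in E12.5 PGCs. The medians over 6727 genes with a mean of 20 to 1000 CPM were 11.2% and 8.24%.

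Per kilobase, *Jarid2* was the most abundant subunit transcript in every library and *Ezh1* or *Epop* the least. In d6PGCLCs the mean RPKM was 159 for *Jarid2*, 121 for *Suz12*, 103 for *Ezh2*, 102 for *Mtf2*, 71.2 for *Eed*, 41.6 for *Aebp2*, 33.2 for *Phf19*, 26.7 for *Epop* and 11.3 for *Ezh1*. Neighbours in this order whose library ranges overlapped were *Ezh2* and *Mtf2*, *Aebp2* and *Phf19*, and *Phf19* and *Epop*. In E12.5 PGCs it was 128 for *Jarid2*, 85.8 for *Suz12*, 80.5 for *Ezh2*, 72.8 for *Mtf2*, 61.9 for *Eed*, 30.3 for *Phf19*, 26.97 for *Aebp2*, 12.9 for *Ezh1* and 9.74 for *Epop*. There, *Suz12* overlapped with *Ezh2*, and *Ezh2* with *Mtf2*. *Epop* and *Ezh1* changed places between the cell types, *Epop* being above *Ezh1* in all 4 d6PGCLC libraries and below it in all 4 PGC libraries. *Aebp2* was below *Phf19* in all 4 PGC libraries and above it in 3 of 4 d6PGCLC libraries. RPKM rests on the length of the counted isoform, which was 68.2% of the longest coding transcript for *Phf19*, and the order of *Aebp2* and *Phf19* is uncertain to that extent.

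**Figure D2:**
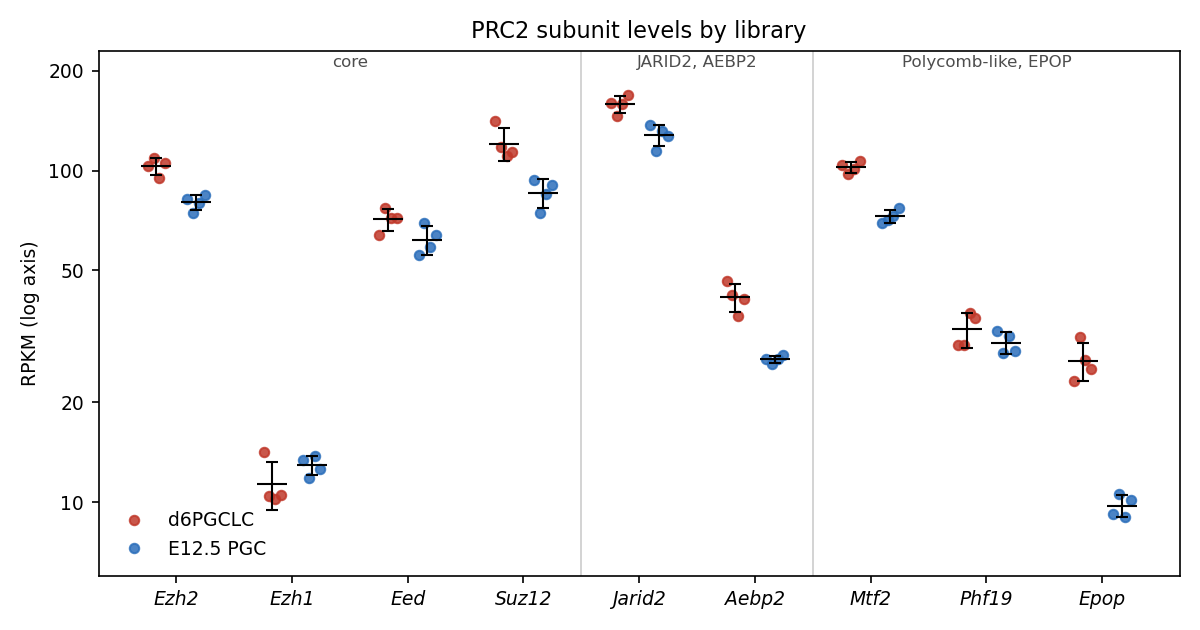
RPKM on a log axis is shown for each PRC2 subunit gene in the 4 d6PGCLC (red) and 4 E12.5 PGC (blue) libraries, with mean and SD as black bars and genes grouped by role. *Epop* separates the groups most clearly, at a mean of 26.7 against 9.74 RPKM, and *Ezh1* has 1 high d6PGCLC library.

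Ratios within a library do not depend on its scaling and are given as a description without a test. The ratio of *Ezh2* to *Ezh1* RPKM was 7.30, 10.5, 9.27 and 10.04 in d6PGCLC replicates 1 to 4 and 5.79 to 6.71 in E12.5 PGCs, so that the groups did not overlap (9.27 ± 1.41 and 6.24 ± 0.383). *Ezh2* thus made up most of the catalytic subunit transcripts in both cell types, and more so in d6PGCLCs. *Epop* to *Mtf2* was 0.223 to 0.322 in d6PGCLCs and 0.123 to 0.149 in E12.5 PGCs, again without overlap, which means that *Epop* differed more than its Polycomb-like partner. *Jarid2* to *Aebp2* went the other way, at 3.45 to 4.36 in d6PGCLCs and 4.41 to 5.09 in E12.5 PGCs, with a narrow gap. *Mtf2* to *Phf19* was 2.71 to 3.49 and 2.13 to 2.71, meeting at the edge. The ratio of *Suz12* to the sum of *Ezh1* and *Ezh2* was 0.982 to 1.20 and 0.858 to 0.980, also close to touching. Among core subunits, *Suz12* to *Eed* overlapped (1.71 ± 0.329 and 1.40 ± 0.256).

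**Figure D3:**
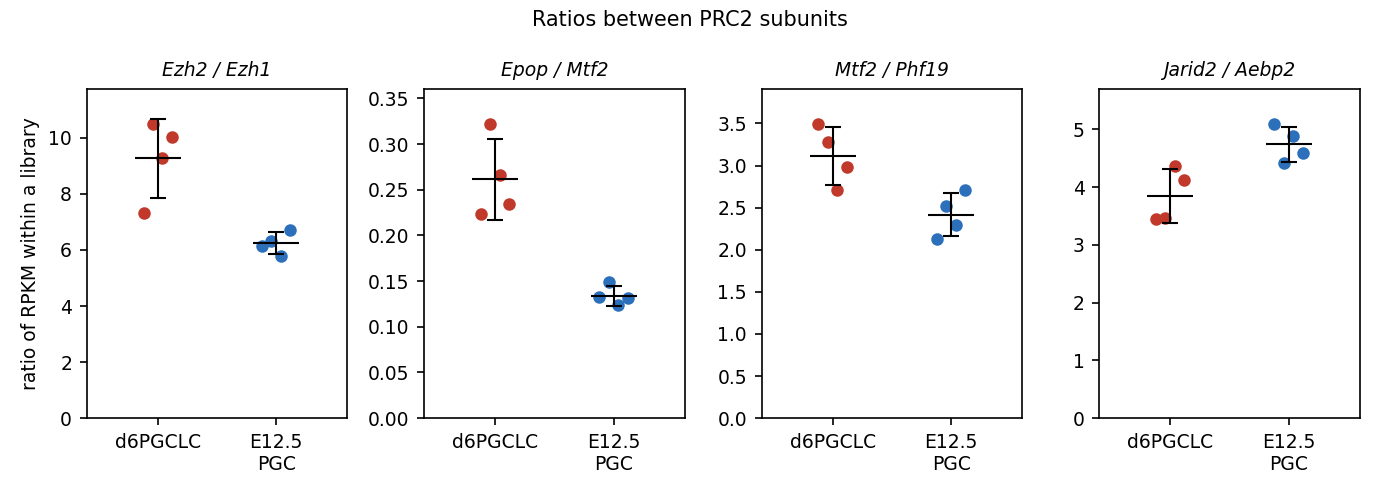
Each panel plots a ratio of RPKM between PRC2 subunit genes within each of 4 d6PGCLC (red) and 4 E12.5 PGC (blue) libraries, with mean and SD as black bars and axes from 0. The groups are apart for *Ezh2* to *Ezh1* and for *Epop* to *Mtf2*, and close for *Jarid2* to *Aebp2* and *Mtf2* to *Phf19*.

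Summed over the core genes, RPKM was 288 to 323 in d6PGCLCs and 230.4 to 252 in E12.5 PGCs, and summed over the accessory genes measured 348 to 379 and 251 to 276. Both sums were higher in every d6PGCLC library. The log2 ratio of the Polycomb-like and EPOP form (*Mtf2*, *Phf19* and *Epop*) to the other (*Jarid2* and *Aebp2*) was -0.30 ± 0.07 in d6PGCLCs and -0.46 ± 0.08 in E12.5 PGCs, with overlap. *Phf1* is missing from the first sum, so that only its measured part is described.

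Of 7 other PRC2 partner genes with a row, none was higher in d6PGCLCs, 2 were lower and 5 were not called, with a median log2 fold change of -0.10. The 2 that were lower were *Ezhip* and *Lcor*. *Ezhip*, on the X chromosome, encodes an inhibitor of PRC2 that binds the catalytic subunit and is expressed in gonads. It measured 5.62, 5.29, 0.913 and 3.39 CPM in d6PGCLCs, from 11 to 52 reads, and 30.8, 22.2, 25.1 and 20.2 CPM in E12.5 PGCs, from 211 to 272 reads. All d6PGCLC libraries were far below all PGC libraries, with a log2 fold change of -2.73 (SE 0.30, adjusted p = 3.14e-07), and -2.98 to -2.36 with each library left out. *Lcor*, whose locus also encodes the PRC2 partner PALI1, was at 15.7, 11.7, 12.7 and 12.7 CPM against 28.6, 21.6, 22.2 and 24.4 CPM. Its log2 fold change was -0.87 (SE 0.15, adjusted p = 0.000111). The isoform counted for *Lcor* spans 2796 exonic bases. Whether it includes the part that encodes PALI1 was not examined, so that the value may not describe PALI1. *Rbbp7*, which encodes a histone-binding core partner, was at 525 ± 55.2 and 549 ± 38.9 CPM, with a log2 fold change of -0.07 (SE 0.09, adjusted p = 0.746). Its relative *Rbbp4* was not analysed here. The elongin genes *Elob* and *Eloc*, whose proteins bind EPOP, were not called, at log2 fold changes of -0.07 and 0.25.

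Both genes listed here for demethylases of H3K27, *Kdm6a* and *Kdm6b*, were higher in d6PGCLCs, as were most PRC2 subunit genes. *Kdm6b* had 48.0, 26.4, 43.9 and 44.1 CPM in d6PGCLCs and 2.62, 2.53, 2.95 and 2.89 CPM in E12.5 PGCs. The PGC values rest on 21 to 32 reads a library and are nearly equal. The log2 fold change was 3.87 (SE 0.21, adjusted p = 4.27e-12). *Kdm6a* was at 179.7, 142, 202 and 216 CPM against 125, 119, 119.6 and 125 CPM, a log2 fold change of 0.60 (SE 0.11, adjusted p = 0.000165), without overlap.

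Of 4 *Cbx* genes, whose proteins read H3K27me3 within Polycomb repressive complex 1, 2 were higher, 1 was lower and 1 was not called. *Cbx7* (253 ± 35.5 against 123 ± 10.7 CPM, log2 fold change 1.04, adjusted p = 6.76e-08) and *Cbx6* (1.08) were higher, whereas *Cbx8* (1.117 ± 0.178 against 3.83 ± 1.62 CPM, -1.75, adjusted p = 0.000412) was lower. Among 5 genes for methyltransferases of H3K36, *Ash1l* (-1.13) and *Nsd2* (-0.54) were lower, *Nsd3* (0.49) was higher and 2 were not called. *Nsd3* did not pass without E12.5 PGC replicate 3 (0.46, adjusted p = 0.0601) or 4 (0.44, adjusted p = 0.0606).

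**Figure D4:**
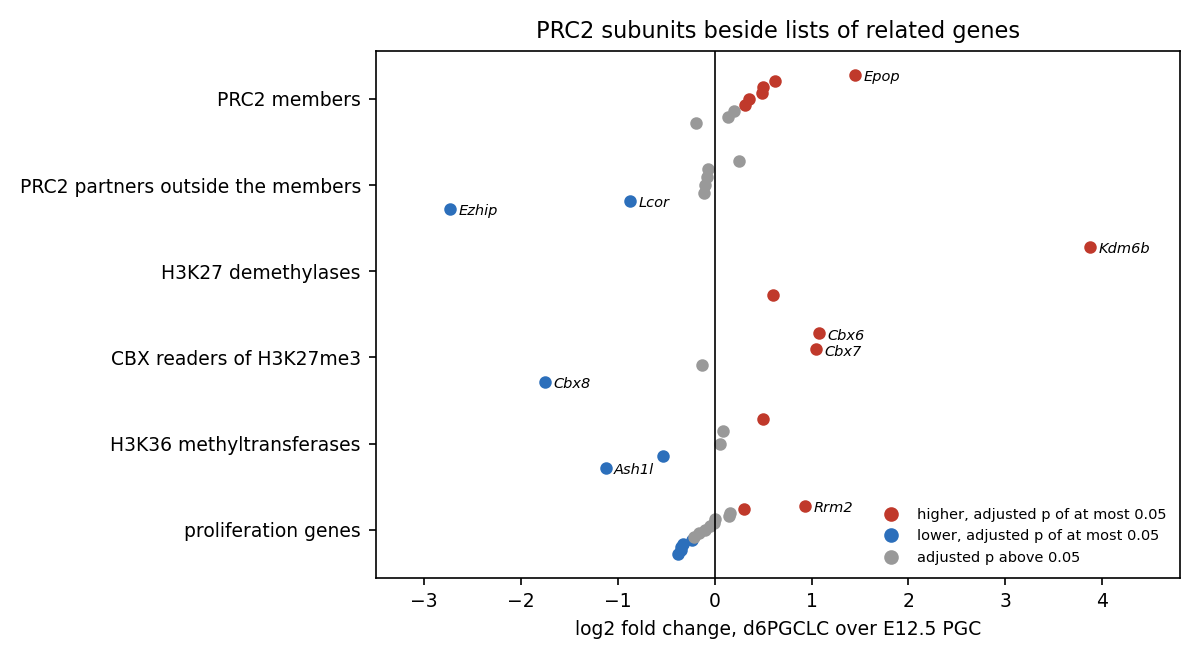
Each point is the log2 fold change of 1 gene between d6PGCLCs and E12.5 PGCs, by list, coloured by whether the gene was higher (red), lower (blue) or not called (grey) at an adjusted p of at most 0.05. The PRC2 subunit genes lie between -0.19 and 1.45, with *Kdm6b* far to the right at 3.87 and *Ezhip* far to the left at -2.73.

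Genes commonly used as examples of Polycomb targets were mostly silent in both cell types. Of 22 with a row, 18 had a mean below 1 CPM, 14 of them with at most 3 counts in every library, including 4 with no count at all. In all, 6 were lower in d6PGCLCs, 1 was higher and 15 were not called, and the median log2 fold change of -0.70 rests largely on genes at the limit of detection. *Pax6* was lower in d6PGCLCs (2.61 ± 1.14 against 20.2 ± 1.94 CPM, log2 fold change -2.98, adjusted p = 3.00e-09), as were *Cdx2* (22.2 ± 10.9 against 43.1 ± 4.84 CPM, -0.95) and *Cdkn2b* (0.891 ± 0.604 against 2.37 ± 0.458 CPM, -1.45). Without E12.5 PGC replicates 2 and 4, *Cdkn2b* was at -1.32 (adjusted p = 0.0510). *Olig2*, named after its values were seen, was the gene that was higher, at 1.23 ± 0.913 against 0.220 ± 0.298 CPM. Summed over the list, CPM was 31.1 to 43.8 in d6PGCLCs and 74.7 to 86.5 in E12.5 PGCs, most of it from *Pax6*, *Cdx2* and *Cdkn2a* (9.37 ± 2.94 against 10.6 ± 1.72 CPM, not called).

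PRC2 subunit genes are often expressed in dividing cells, and 15 genes of proliferation were therefore read beside them. Of these, 2 were higher in d6PGCLCs, 5 lower and 8 not called, with a median log2 fold change of -0.10. Their summed level overlapped, at 8377 to 9791 CPM in d6PGCLCs and 8929.9 to 9917 CPM in E12.5 PGCs. *Rrm2*, a ribonucleotide reductase subunit gene, was higher (0.93), whereas *Mki67* (-0.35) and the replication genes *Mcm2* (-0.35) and *Mcm3* (-0.38) were lower. The part of proliferation in the level of the subunit genes was not tested.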

How the data were processed

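RNA from 4 pools of d6PGCLCs and 4 of E12.5 PGCs was sequenced as stranded poly(A) libraries of single-end 100-bp reads. The authors used STAR to map reads to GRCm38 plus the ERCC sequences, and deposited raw counts of uniquely mapped reads (QuasR) on the exons of 1 randomly chosen isoform per gene, with its exonic length. Where promoters of genes overlapped, 1 chosen at random was kept. Whether counting used strand is not given in the sources used here.

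Identifiers were matched to RefSeq, which named 21907 of 21950 genes, and 4940 genes had no count in any library. Counts were normalized with TMM and fitted without a filter in edgeR 4.0.16 (R 4.3.3; glmQLFit, prior count 0.125), the cell type being the single factor of the model. The Benjamini-Hochberg adjustment covered all genes. The study used the likelihood ratio test, which was an alternative here, as were DESeq2 1.42.0, other normalizations and filters, a prior count of 2, a replicate block, an exonic length offset, and leaving out each library. Steps were tested on simulated data. Precision was limited by 4 libraries a group, and 3 counts, a limit of detection that covers counting error only, equal 0.249 to 0.375 CPM. All pairs of libraries within a group differed by more than sampling noise (chi-square/df of 3.35 to 22.1).

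Members and lists were chosen with earlier results of these data known. Named beside the members were *Kdm6b*, *Cbx7*, *Rbbp4*, *Rbbp7* and, per list, up to 4 called genes with the largest change and a mean of at least 1 CPM. *Elob*, *Eloc*, *Olig2*, *Cdkn2a* and the markers named are outside this rule and were chosen after their values were seen. A further list gene is not reported here and was left out of its list's counts.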

Additional observations from a re-analysis of the deposited data

Results flagged for a closer look

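*Ezh1* in the d6PGCLCs had a library far from its companions. Replicate 1 measured 60.4 CPM and the other 3 between 43.7 and 44.7 CPM, so that the gap to the nearest value was 0.94 of the range of the group, above Dixon's 95% critical value for 4 samples. Of 26 groups of values examined this way, chance would mark about 1.3.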

How the results depend on the processing

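The count of members higher in d6PGCLCs was 6 under each alternative planned that kept all libraries, and the count lower was 0. With each library left out in turn, 6 to 7 were higher and 0 to 1 lower, the 1 being *Ezh1* without d6PGCLC replicate 1. Without E12.5 PGC replicates 2 and 4 together, an alternative chosen after seeing the data, 5 were higher, *Jarid2* (0.24, adjusted p = 0.0999) being lost. No member changed sign. The 2 uncalled positive values were smaller with an offset for exonic length, *Eed* at 0.10 (adjusted p = 0.449) and *Phf19* at 0.03. Of the called genes, *Ezh2* (0.30), *Aebp2* (0.53) and *Epop* (1.34) were also smaller with it. *Jarid2* (0.37) was larger, and *Suz12* and *Mtf2* (0.50 each) were little changed. *Cdkn2b* was at -1.32 (adjusted p = 0.0510) without both PGC libraries, against -1.45 with all. The order of members by RPKM was the same with library sizes alone in 8 of 8 libraries. Depth limits the Polycomb target list, where 14 genes had at most 3 counts in every library.

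With the replicate number as a block, 6 members were higher and 0 lower, and 7270 genes were called in all, against 6919 without it. Whether libraries of the same number shared a batch is not settled by these values. Their deviations from the group means correlated at 0.30, 0.11, -0.04 and 0.04 for numbers 1 to 4. The highest value between libraries of different numbers was 0.14. Number 1 thus stood above all other pairs, but not every library correlated best with its own number.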
